A study of Mus musculus with 6 samples.

Results

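The genes described are Arg1, Arg2, Nos2, Acod1, Ido1, Kmo and Il4i1, 7 of the 32285 genes counted. They were chosen by their symbols as enzymes of arginine or tryptophan breakdown or of itaconate synthesis in myeloid cells. Their unique molecular identifiers (UMIs, each 1 captured RNA molecule) were summed per library over cells gated by marker genes as neutrophils, monocytes, macrophages or dendritic cells, among cells with at least 250 genes and at most 5% mitochondrial UMIs. Single cells came from 6 mice, 1 per group. The groups were control, 2DG, 2FF and anti-PD-L1, with anti-PD-L1 also given on top of either inhibitor (2DG plus anti-PD-L1, here combined 2DG, and 2FF plus anti-PD-L1, here combined 2FF), and lists of values keep this order. Per the study's methods all were C57BL/6 females, 6 to 8 weeks old at injection, bearing tumors of KPCA, a homologous recombination-proficient ovarian cancer line injected into the ovarian bursa. 2DG (2-deoxy-D-glucose, an inhibitor of glycolysis and of N-glycosylation) was injected, and 2FF (2-fluorofucose, an inhibitor of fucosylation) was gavaged, both every 2 days, with the tumor cells of the 2FF groups also exposed to 2FF before injection. The antibody blocks PD-L1, a ligand that restrains T cells, and was injected at 5 mg/kg, 2 doses weekly over 3 weeks starting after day 9. Controls received solvent and rat IgG, and tumors were taken on day 30. The deposited descriptions go against the paper in ways that could not be settled here. The sample labels name lymph node as the tissue where the methods name tumors, and 2F-Peracetyl-Fucose as 2FF where the paper names 2-fluoro-L-fucose. The series description speaks of mice both young and aged, without saying which libraries came from which. If ages differed between libraries, age cannot be told apart from treatment. Only 45 of the cells that passed were gated by keratin and other epithelial genes.

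With 1 library per group there is no replicate and no test between groups, and treatment cannot be told apart from the mouse or the library. Of 57078 barcodes 51633 passed, and 33153 were gated as myeloid. Libraries held 61859753 to 73885214 UMIs and shared 16 to 34 barcodes per pair. The control library stood apart in its makeup: 91.8% of its cells were myeloid against 53.2% to 66.3% in the other 5 libraries, and neutrophils were 33.8% of its myeloid cells against 5.38% to 9.25%. Macrophages marked by Spp1 and Gpnmb were 26.6% of control myeloid cells and 6.78% to 11.9% of the others, and macrophages marked by C1q genes were 10.1% against 21.3% to 31.6%. Every myeloid class had at least 2 of its own gate markers among its 5 leading genes. The gate selects cells on these markers, so this is no independent support for the classes. The borders are not sharp. In 884 of the 4521 Spp1/Gpnmb macrophages the winning score was less than 25% above that for classical monocytes. The score for C1q macrophages came as close in 355 of them and that for neutrophils in 343, with other classes as close in fewer cells each.

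Arginase 1 (Arg1, cytosolic) and arginase 2 (Arg2, mitochondrial) split arginine into ornithine and urea, and inducible nitric oxide synthase (Nos2) turns it into nitric oxide and citrulline; both routes deplete the arginine that T cells need. Acod1 makes itaconate from the citric acid cycle intermediate cis-aconitate in activated macrophages and neutrophils. Ido1 opens tryptophan breakdown to kynurenine, Kmo hydroxylates kynurenine further down the pathway, and Il4i1 is a secreted oxidase of aromatic amino acids. Apart from Kmo, which acts on kynurenine, these enzymes are known as ways in which tumor myeloid cells restrain T cells.

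On GRCm38, the assembly of mm10, all 7 genes are protein coding in the GENCODE M21 annotation. Arg1 lies at chr10:24915221-24927484 on the minus strand, Arg2 at chr12:79130777-79156301 on the plus strand, Nos2 at chr11:78920787-78960254 on the plus strand and Acod1 at chr14:103046977-103056573 on the plus strand. Ido1 lies at chr8:24584136-24597009 on the minus strand, Kmo at chr1:175620381-175662116 on the plus strand and Il4i1 at chr7:44816387-44840809 on the plus strand. The span of Il4i1 overlaps Nup62 on the same strand and Tbc1d17 and Atf5 on the other, so reads of Il4i1 may in part have been left unassigned or shared. Arg2 overlaps Vti1b and Gm48780 and Kmo overlaps Fh1, each on the opposite strand.

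Kmo and Il4i1 were both highest in dendritic cells, and short stretches before their start sites are shown because each holds GAGGAAGT, the core bound by the myeloid factor PU.1. RefSeq promoter sequences (GRCm38.p6) were matched for Kmo, Il4i1 and Acod1. The 250 bases before each start were searched on both strands for GAGGAAGT, an NF-kappaB-like motif, TTCNNNGAA (the GAS element), the core of the interferon response element and TTGCNNAA (C/EBP-like), and only GAGGAAGT was found. Capitals mark the motif.
Kmo, chr1:175632080-175632107, plus strand: acacttatcaGAGGAAGTgagctttgac
Il4i1, chr7:44836145-44836172, plus strand: agactgagttACTTCCTCctgtgatatt
The motif starts 103 bases before the start site of Kmo and 133 bases before that of Il4i1, where it reads on the opposite strand. The Kmo stretch lies in the 5' untranslated part of the first exon of a longer GENCODE transcript, and the Il4i1 stretch in an intron of a longer Il4i1 transcript and in the last exon of Tbc1d17 on the other strand. Of 32851 promoters of this length 2.44% hold it, and the other motifs are held by 6.54%, 7.02%, 2.98% and 9.56%. None of the 5 was found in the Acod1 window. These matches are descriptions of letters, not of binding.

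Among classes of at least 30 cells, each enzyme but Ido1 had the same leading class in all 6 libraries. Levels are counts per 1000000 UMIs of the class (CPM), and CPM of different genes are not compared. Arg1 and Nos2 were highest in Spp1/Gpnmb macrophages, Arg2 and Acod1 in neutrophils, Kmo in type 2 conventional dendritic cells (cDC2) and Il4i1 in mature dendritic cells, in 6 of 6 libraries each among classes of at least 30 cells. For every one of these except Kmo the 95% Poisson interval of the leading class lay clear of the next class in all 6 libraries. For Kmo it lay clear in 3, while plasmacytoid dendritic cells (pDC) came within the interval in the 2DG, 2FF and anti-PD-L1 libraries. Control and combined 2FF, where it lay clear, had only 7 and 27 pDC, too few to be compared. A lead of cDC2 over pDC clear of counting error was therefore seen in combined 2DG only. In control and combined 2FF the lead of cDC2 rests on leaving out pDC by the limit of 30 cells, and the order of these classes was not compared. All intervals given cover counting error only. Myeloid cells held 98.1% of Arg1, 97.8% of Arg2, 97.7% of Nos2, 97.6% of Acod1, 91.7% of Kmo and 88.6% of Il4i1 UMIs.

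**Figure D1:**
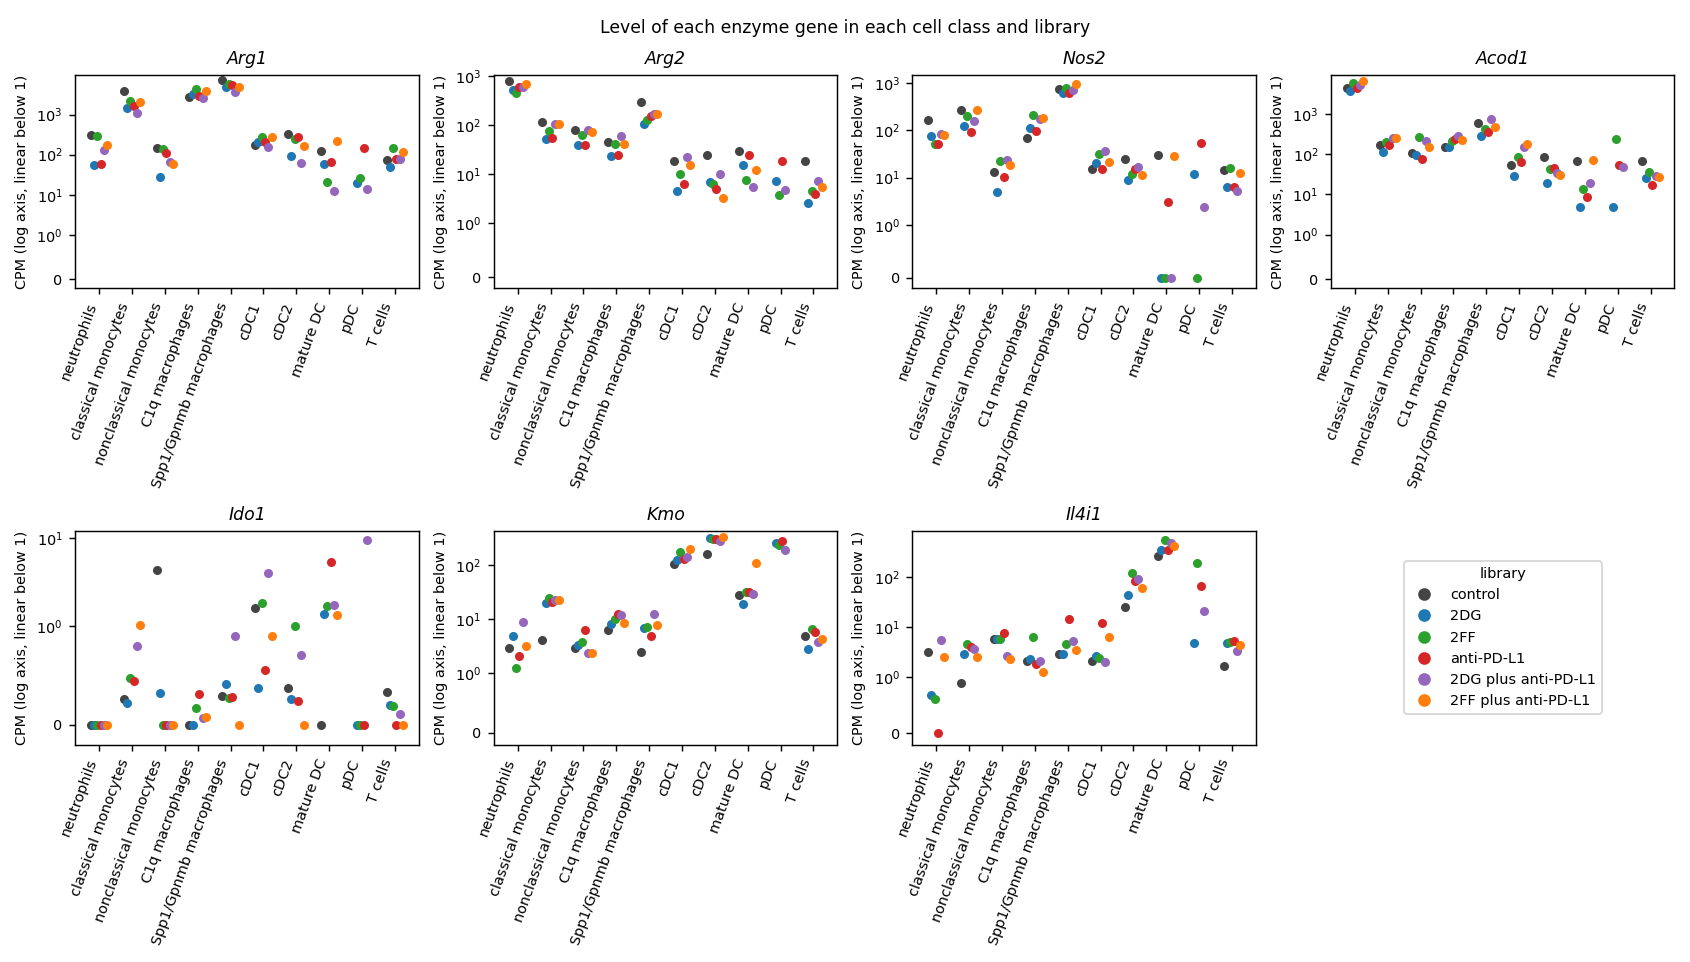
Level of each of the 7 genes (CPM, log axis that is linear below 1) by cell class, with 1 point per library and classes of under 30 cells left out; T cells are plotted for comparison. Arg1 and Nos2 peak in Spp1/Gpnmb macrophages, Arg2 and Acod1 in neutrophils, Kmo in cDC2 and pDC and Il4i1 in mature DC, while Ido1 stays under 10 CPM in every class.

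Arg1 in Spp1/Gpnmb macrophages stood at 7248 CPM in control, 4964 in 2DG, 5681 in 2FF, 5543 in anti-PD-L1, 3581 in combined 2DG and 4948 in combined 2FF. Control (95% interval 7208 to 7289) was the highest and combined 2DG (3503 to 3661) the lowest. The intervals of 2DG and combined 2FF overlapped, as did those of 2FF and anti-PD-L1. C1q macrophages gave 2711, 3351, 4358, 2956, 2605 and 3854 CPM in the same order of libraries, so that control was not the highest there. Between 74.9% and 84.8% of Spp1/Gpnmb macrophages and 75.1% to 88.5% of C1q macrophages had an Arg1 UMI. With every cell thinned to 1000 UMIs these shares were 63.9% to 76.4% and 51.4% to 75.5%. T cells, a lymphoid class set beside each gene for comparison, had Arg1 at 49.0 to 145 CPM and a UMI in 6.03% to 15.2% of cells, at median depths of 5727 to 7538 UMIs against 5981 to 12470 in the macrophages.

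In classical monocytes Arg1 was 3823 CPM in control, 1424 in 2DG, 2190 in 2FF, 1675 in anti-PD-L1, 1082 in combined 2DG and 2097 in combined 2FF. Control lay above the other 5 libraries. The log2 ratio of CPM + 5, the measure of change used throughout, was -1.42 for 2DG over control (-1.45 to -1.40 by counting error, with no CPM added), -0.80 for 2FF over control and -1.19 for anti-PD-L1 over control. It was -0.63 for combined 2DG over anti-PD-L1 and 0.32 for combined 2FF over anti-PD-L1. Classical monocytes of the control library had the highest sum of their own markers, 11074 CPM against 7448 to 8757 in the others. They also carried more of the 8 Spp1/Gpnmb macrophage markers, summed at 3539 CPM against 1407 to 2201, and of the 12 neutrophil markers, at 2482 against 538 to 1766, with all 8 Spp1/Gpnmb markers detected in each library. The part of these cells in the Arg1 level was not tested. In neutrophils Arg1 was at 56.2 CPM in 2DG and 59.4 in anti-PD-L1, beside 49.0 and 79.3 CPM in the T cells of those libraries, and 20 of 2814 control neutrophils held 50% of the 4680 UMIs there. With a stricter gate, which keeps a cell only if its winning score is at least 2 times the next, the log2 ratio in neutrophils for 2DG over control was -0.23, against -2.35. In C1q macrophages the Arg1 ratios over control were 0.31 for 2DG, 0.68 for 2FF and 0.12 for anti-PD-L1. The stricter gate made them 1.28, 1.63 and 1.08.

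Nos2 was concentrated in the same macrophages. Spp1/Gpnmb macrophages had 755 CPM in control, 603 in 2DG, 793 in 2FF, 597 in anti-PD-L1, 715 in combined 2DG and 933 in combined 2FF. The highest was the combined 2FF library, the 2DG and anti-PD-L1 values overlapped within counting error, and so did those of control and 2FF. In C1q macrophages the levels were lower and spread more, at 68.8, 110, 207, 94, 168 and 185 CPM in the same order, with control the lowest. The log2 ratio for 2FF over control was 1.52 there (1.47 to 1.7 with no CPM added), and the other 4 comparisons ran from 0.42 to 0.94. Under the stricter gate the values over control in C1q macrophages were 1.51 for 2DG, 2.90 for 2FF and 1.59 for anti-PD-L1. Classical monocytes showed 271 CPM in control, 122 in 2DG, 202 in 2FF, 92.8 in anti-PD-L1, 153 in combined 2DG and 262 in combined 2FF. The log2 ratio in monocytes was thus -1.12 for 2DG and -1.50 for anti-PD-L1 over control, and 1.45 for combined 2FF over anti-PD-L1. T cells held 5.29 to 16.0 CPM.

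**Figure D2:**
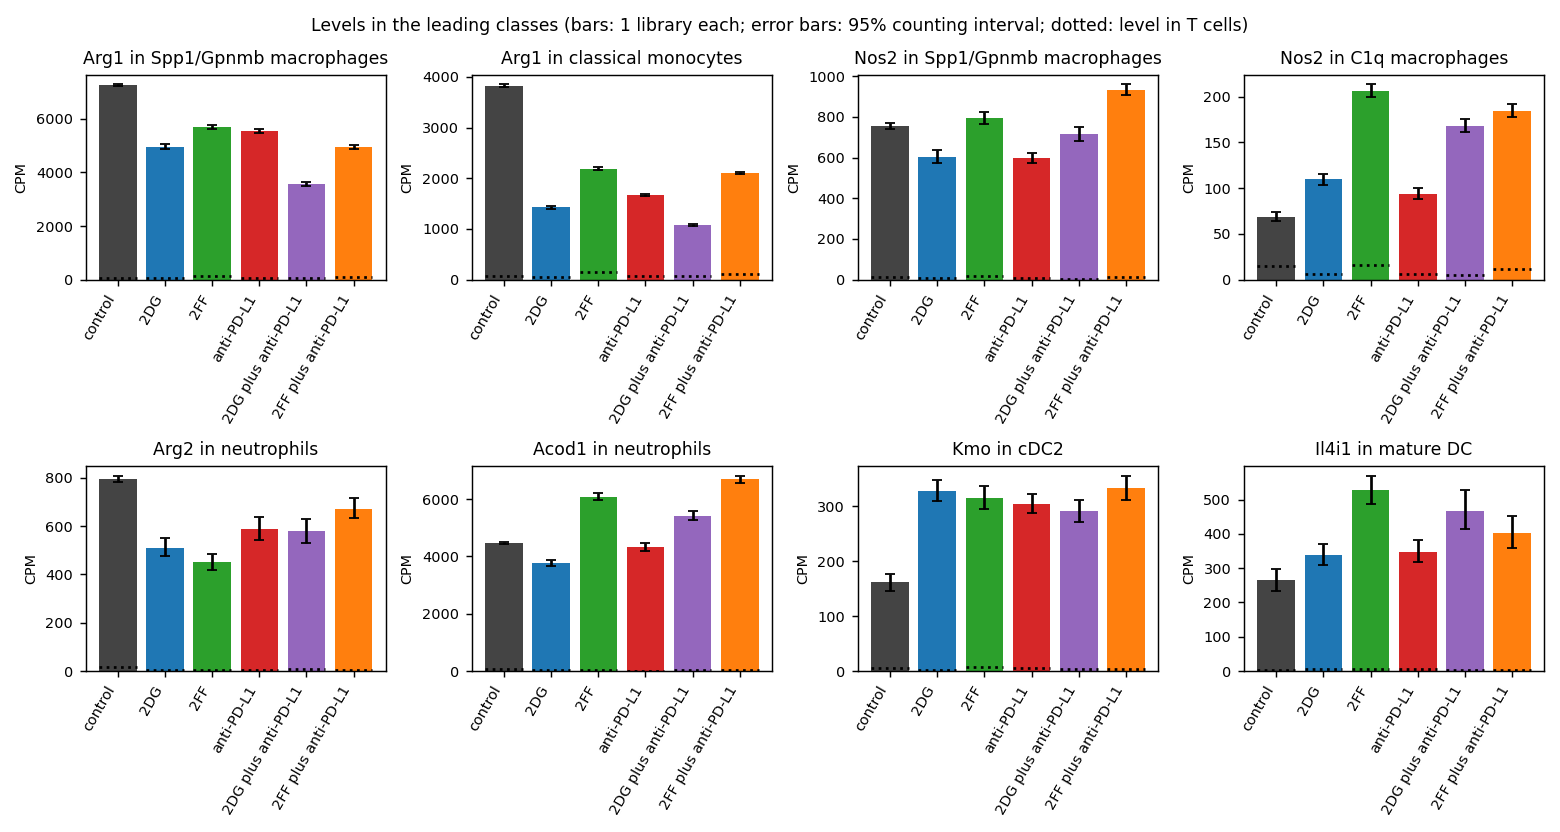
Levels (CPM, linear axis from 0) in 8 pairs of gene and class, 1 bar per library with its 95% Poisson interval and a dotted line at the level in T cells of that library. Arg1 in classical monocytes and Spp1/Gpnmb macrophages is highest in control, Nos2 in C1q macrophages and Kmo in cDC2 are lowest in control, and Acod1 in neutrophils is highest in the 2 libraries with 2FF.

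Arg1 and Nos2 were found in the same cells. Among Spp1/Gpnmb macrophages with a Nos2 UMI, 85.6% to 96.6% also had an Arg1 UMI, and among those without, 56.4% to 75.9%. In C1q macrophages the shares were 94.1% to 97.9% with Nos2 and 70.4% to 84.8% without. Among classical monocytes with Arg1, 23.0% to 40.9% had Nos2, against 2.97% to 9.02% of those without. In Spp1/Gpnmb macrophages of the control library the cells with Nos2 were read more deeply, with a median of 8793 UMIs against 3704. In C1q macrophages of that library they were read less deeply (11044 against 12983), and there 95.5% of the cells with Nos2 and 70.4% of the others had Arg1. In the other libraries the median depths of the 2 kinds of C1q macrophage were 9344 to 10576 with Nos2 and 8393 to 9378 without. Across 69 sums of a class in a library, Arg1 and Nos2 had a Pearson r of 0.89 on log2(CPM + 5), as a description of points that share libraries.

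**Figure D3:**
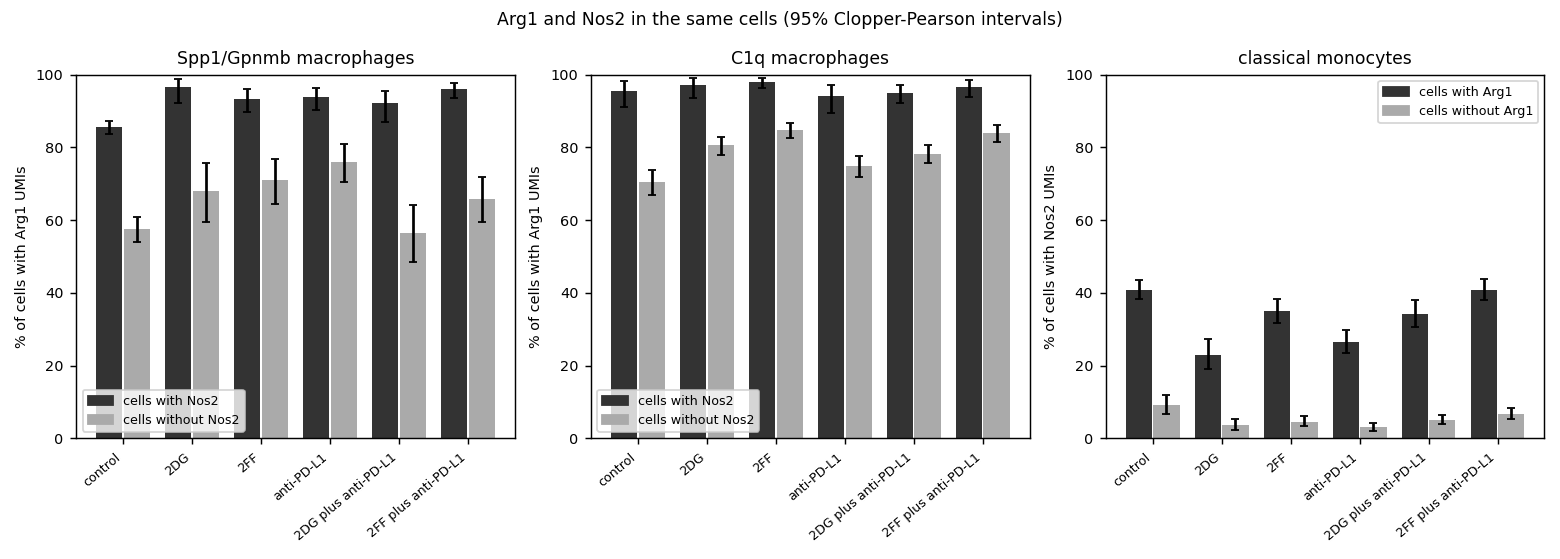
Share of cells (%) with Arg1 UMIs among macrophages with (dark bars) and without (light bars) Nos2, and with Nos2 UMIs among classical monocytes with and without Arg1, by library, with 95% Clopper-Pearson intervals. The dark bar is the taller for every class and library, for example 40.9% against 9.02% in control monocytes.

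Arg2 had its highest level in neutrophils, at 795 CPM in control, 511 in 2DG, 450 in 2FF, 589 in anti-PD-L1, 579 in combined 2DG and 673 in combined 2FF, and 57.0% to 80.4% of them had a UMI (33.7% to 49.6% at 1000 UMIs per cell). Control (781 to 809) was the highest and 2FF (418 to 484) the lowest, and among the values between them neighbours overlapped, such as anti-PD-L1 (542 to 639) and combined 2DG (531 to 630). Spp1/Gpnmb macrophages came next, at 291 CPM in control and 103, 123, 152, 169 and 167 CPM in the other libraries in the same order. The log2 ratio in that class was -1.46 for 2DG (-1.69 to -1.32 with no CPM added), -1.22 for 2FF and -0.92 for anti-PD-L1 over control, and 0.15 and 0.13 for the combinations over anti-PD-L1. With a stricter gate the values over control were -0.76, -0.70 and -0.08, none past 2-fold. The markers of the class itself summed to 11970 CPM in control and to 7251 to 8004 CPM in the others. The 12 neutrophil markers summed to 4825 CPM in the control Spp1/Gpnmb macrophages and to 950 to 1312 CPM in the others, and their part in the Arg2 level was not tested. T cells held 2.58 to 17.9 CPM, the highest value in the control library.

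Acod1 was highest in neutrophils, which had 4484 CPM in control, 3774 in 2DG, 6088 in 2FF, 4333 in anti-PD-L1, 5423 in combined 2DG and 6691 in combined 2FF, with a UMI in 88.0% to 96.3% of cells. The libraries with 2FF were the highest and 2DG the lowest, and the intervals of control and anti-PD-L1 overlapped. No comparison passed 2-fold in neutrophils: the log2 ratio was -0.25 for 2DG, 0.44 for 2FF and -0.05 for anti-PD-L1 over control, and 0.32 and 0.63 for adding 2DG or 2FF to anti-PD-L1. Over all myeloid cells the level was 1238 CPM in control and 262 to 466 CPM in the others, beside the neutrophil shares given above. In T cells Acod1 was at 17.1 to 66.5 CPM, with a UMI in 3.12% to 9.64% of cells.

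Spp1/Gpnmb macrophages came second for Acod1, at 613 CPM in control, 280 in 2DG, 421 in 2FF, 361 in anti-PD-L1, 765 in combined 2DG and 484 in combined 2FF. Here 2DG alone gave the lowest level and combined 2DG the highest, with log2 ratios of -1.12 over control and 1.07 over anti-PD-L1. The log2 ratio over control was -0.54 for 2FF and -0.75 for anti-PD-L1, but 0.40 and 0.15 with a stricter gate. For 2DG over control it stayed below 0 in 12 of 12 alternatives, the highest being -0.96. The markers of the class itself were also highest in control, at 11970 CPM against 7251 to 8004. Neutrophil markers summed to 4825 CPM in the control Spp1/Gpnmb macrophages and to 950 to 1312 CPM in the others. Their part in the Acod1 level was not tested. In nonclassical monocytes the values were 108, 94.2, 267, 74.4, 213 and 152 CPM in the same order, and the log2 ratio reached 1.26 for 2FF over control and 1.45 for combined 2DG over anti-PD-L1. Those sums are thin, from 75 to 646 UMIs, with 3 to 10 cells holding 50% of them in each library.

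**Figure D4:**
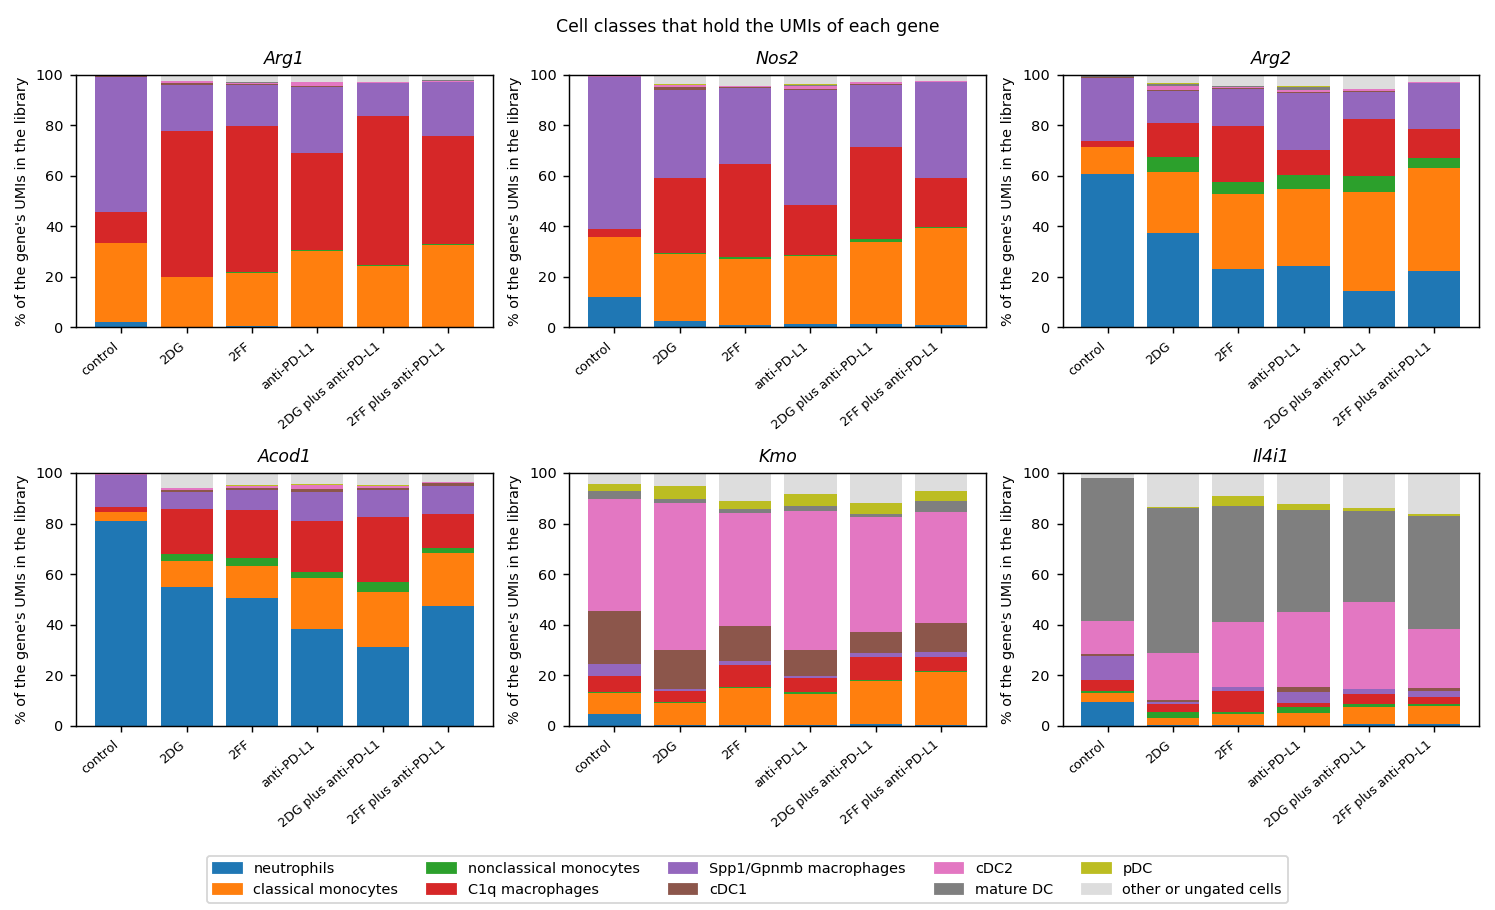
Share of each gene's UMIs in a library (%, stacked to 100) by the class of cell that holds them, for 6 genes and 6 libraries. Neutrophils hold 80.9% of Acod1 and 60.6% of Arg2 in the control library but 31.1% to 54.7% and 14.5% to 37.4% in the others, and in control Spp1/Gpnmb macrophages hold 53.8% of Arg1, while C1q macrophages hold more of Arg1 in each of the other libraries than in control.

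Ido1 was close to absent. Only 150 of its UMIs were counted in the 51633 cells, 109 of them in myeloid cells, and none in 4580 neutrophils. Mature dendritic cells, where Ido1 is known to be induced, had 0 UMIs in control, 2 in 2DG, 2 in 2FF, 7 in anti-PD-L1, 1 in combined 2DG and 1 in combined 2FF, from 63 to 139 cells. Type 1 conventional dendritic cells (cDC1) had 0.38 to 4.02 CPM. No class and comparison reached 50 UMIs, so a difference between groups was not detectable at this depth. The other enzymes that open tryptophan breakdown, Ido2 and Tdo2 (named after their values were seen), had medians over the libraries of 0 to 2.15 and 0 to 0.25 CPM in the myeloid classes.

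Kmo marked conventional and plasmacytoid dendritic cells. In cDC2 it stood at 161 CPM in control, 328 in 2DG, 315 in 2FF, 304 in anti-PD-L1, 291 in combined 2DG and 333 in combined 2FF. Control (146 to 177) lay below the other 5, whose intervals all overlapped one another. The log2 ratio was 1.0 for 2DG, 0.95 for 2FF and 0.90 for anti-PD-L1 over control, and -0.07 and 0.13 for the combinations over anti-PD-L1. Control cDC2 were the most deeply read (a median of 13834 UMIs against 8308 to 10865), and at 1000 UMIs per cell 13.5% of them had a Kmo UMI against 23.1% to 26.2%. The 10 cDC2 markers summed to 3699 CPM in control and to 3144 to 3581 CPM in the others. In pDC, counted in the 4 libraries with at least 30 of them, Kmo was at 192 to 280 CPM, and in cDC1 at 108 to 201 CPM with control the lowest.

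Classical monocytes held little Kmo, at 4.16 CPM in control and 19.8, 24.4, 20.6, 22.3 and 22.3 CPM in the other libraries in the same order. The 5 treated libraries overlapped among themselves within counting error, and none overlapped with control. The log2 ratio was 1.44 for 2DG, 1.68 for 2FF and 1.48 for anti-PD-L1 over control, and with no CPM added 2.25 (1.86 to 2.65), 2.55 (2.19 to 2.93) and 2.30 (1.94 to 2.68). T cells were at 2.73 to 6.49 CPM, a range that holds the control monocytes. The 10 cDC2 markers in these monocytes summed to 224 CPM in control and to 406 to 718 CPM in the others, and their part in the result was not tested. B cells had 38 to 58.4 CPM of Kmo.

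Il4i1 belonged to mature dendritic cells, those marked by Ccr7 and Fscn1. They had 265 CPM in control, 339 in 2DG, 527 in 2FF, 348 in anti-PD-L1, 468 in combined 2DG and 403 in combined 2FF, from 63 to 139 cells and 266 to 622 UMIs per library, with a UMI in 70.1% to 87.3% of cells against 1.20% to 1.71% of T cells. 2FF was the highest and control the lowest. The intervals of 2FF and combined 2DG overlapped, as did those of 2DG and anti-PD-L1, and no comparison passed 2-fold, the nearest being 2FF over control at a log2 ratio of 0.98. In cDC2 Il4i1 was 24.9 CPM in control, 42.6 in 2DG, 118 in 2FF, 81.7 in anti-PD-L1, 90.5 in combined 2DG and 60.4 in combined 2FF. In pDC of the 4 libraries with enough cells it ran from 4.80 to 192 CPM, highest in 2FF and there above cDC2. The log2 ratio in cDC2 reached 2.04 for 2FF (1.86 to 2.64 with no CPM added) and 1.54 for anti-PD-L1 over control, and 4 to 12 cells held 50% of the UMIs in each library.

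Counted over pairs of gene and class with at least 50 UMIs and 30 cells, 16 of 39 pairs were past 2-fold for 2DG over control, 2 higher and 14 lower, where 5.18% of all gene and class pairs were (2.9% higher and 2.28% lower). Among the 14 were Arg1, Arg2, Nos2 and Acod1 in cDC2, at 329, 24.1, 24.5 and 85.2 CPM in control. In 2DG they were 93.7, 6.92, 9.05 and 19.4 CPM. Neutrophil markers summed to 1085 CPM in control T cells and 186 to 295 CPM in the others. The part of such background in the lower pairs was not tested, and the split under other settings is given at the end. For 2FF over control 9 of 41 pairs were past 2-fold, 4 higher and 5 lower (all genes 6.41%, of which 3.67% higher and 2.74% lower), and for anti-PD-L1 over control 9 of 39, 3 higher and 6 lower (all genes 5.01%, 2.96% and 2.05%). These 3 comparisons share the control library. With anti-PD-L1 as the shared base, adding 2DG put 9 of 38 pairs past 2-fold, 6 higher and 3 lower (all genes 2.49%, 1.34% and 1.16%), and adding 2FF put 7 of 38, 6 higher and 1 lower (all genes 1.97%, 1.16% and 0.811%). The pairs are not independent, since classes of a library come from 1 mouse and 1 preparation. The median log2 ratio of all genes was itself 0.21 in neutrophils and 0.19 in Spp1/Gpnmb macrophages for 2DG over control and 0.20 and 0.18 for 2FF. By gene over the 5 comparisons, Kmo was higher in 5 and lower in 0 of 31 pairs, Arg1 higher in 3 and lower in 11 of 41, Arg2 1 and 6 of 31, Nos2 3 and 6 of 33, Acod1 6 and 5 of 39, and Il4i1 3 and 1 of 20.

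**Figure D5:**
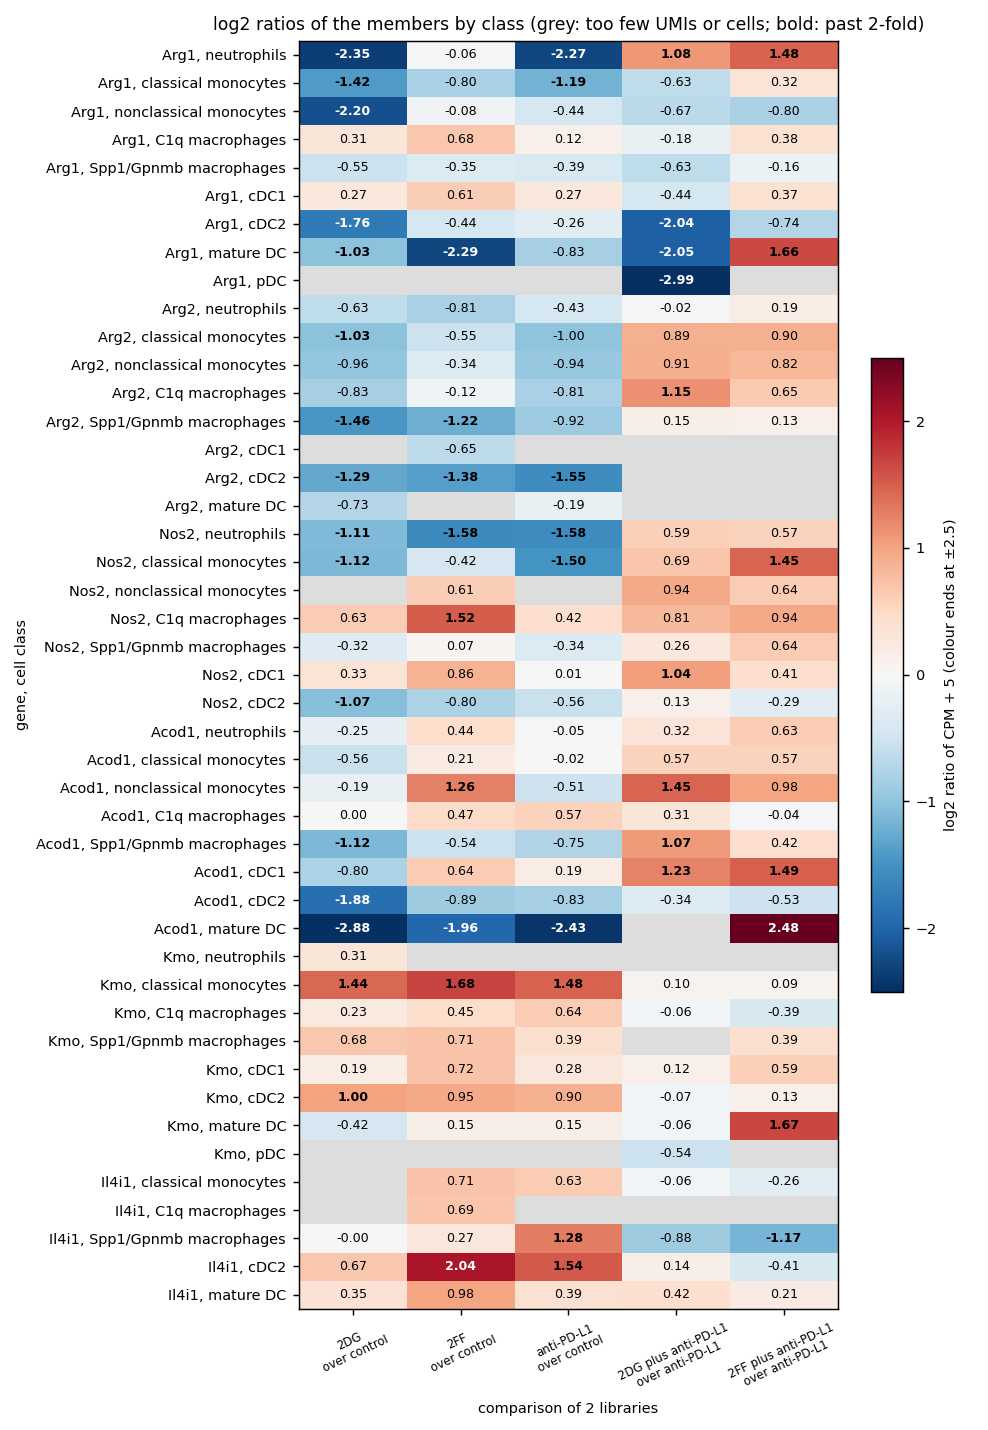
log2 ratio of CPM + 5 of each gene and class (rows) in the 5 comparisons of libraries (columns), with the value printed in each cell, values past 2-fold in bold and pairs with too few UMIs or cells in grey. Kmo in classical monocytes is above 1.4 in the 3 comparisons with control, and the Arg1 values in Spp1/Gpnmb macrophages lie between -0.63 and -0.16.

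The genes around these enzymes were counted in 4 lists, to be read against the shares of all gene and class pairs past 2-fold: 2.9% higher and 2.28% lower for 2DG over control, 3.67% and 2.74% for 2FF, 2.96% and 2.05% for anti-PD-L1, and 1.34% and 1.16% or 1.16% and 0.811% for adding 2DG or 2FF to anti-PD-L1. The regulators were a mixed list of 20 genes, with Il4ra, Hif1a and Tlr4 beside Irf1 and Socs1 of the interferon response. Of their pairs of gene and class, 15 of 156 were higher and 4 lower for 2DG over control. The counts were 22 of 154 and 5 for 2FF, and 21 of 156 and 8 for anti-PD-L1. Median log2 ratios were 0.25, 0.38 and 0.34 against 0.06, 0.05 and 0.06 over all genes. Irf1, a transcription factor of the interferon response, was in neutrophils 446 CPM in control and 1627 in 2FF. Socs1, a feedback inhibitor of cytokine signalling, was 11.3 CPM in control C1q macrophages, 40.3 in 2DG and 48.6 in 2FF. When 2DG or 2FF was added to anti-PD-L1, 4 of 169 and 9 of 155 pairs of the regulators were higher and 1 and 0 lower.

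Of the arginine and polyamine list (18 genes), 5 of 93 pairs were higher and 2 lower for 2DG over control, 8 of 94 and 3 for 2FF, 7 of 94 and 1 for anti-PD-L1, and 2 of 91 and 1 of 89 higher, with 1 lower each, when 2DG or 2FF was added to anti-PD-L1. The lower counts are near the shares of all genes. Slc7a2, an importer of arginine, stood in C1q macrophages at 198 CPM in control and 419 in 2FF, and was highest in Spp1/Gpnmb macrophages (570 to 994 CPM). It was also among the 3 genes whose pattern over the 69 sums was most like that of Arg1, with r of 0.92, after C3ar1 (0.95) and Ecm1 (0.94). Ass1, which rebuilds arginine from citrulline, was 52.6 CPM in control and 152 in 2FF in Spp1/Gpnmb macrophages, and Gatm, which uses arginine to make creatine, 70 in control, 227 in 2DG and 383 in 2FF. In neutrophils Azin1, an activator of polyamine synthesis, was 191 CPM in control and 78.9 in 2FF.

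Among 20 genes around itaconate and the citric acid cycle, 0 of 136 pairs were higher and 5 lower for 2DG over control, 3 of 135 and 6 for 2FF and 0 of 140 and 5 for anti-PD-L1, and 8 of 137 and 4 of 131 were higher and 0 and 2 lower when 2DG or 2FF was added to anti-PD-L1. The lower counts for the comparisons with control are small and not far from the shares of all genes. Slc7a11, the cystine importer, stood in Spp1/Gpnmb macrophages at 803 CPM in control, 316 in anti-PD-L1, 909 in combined 2DG and 640 in combined 2FF. In neutrophils it was 1047 CPM in anti-PD-L1 and 2484 in combined 2DG. Clybl, which clears a breakdown product of itaconate, was 80.4 CPM in control neutrophils, 16.0 in 2DG and 36.1 in 2FF. Gclm, of glutathione synthesis, was 55.0 CPM in control C1q macrophages and 22.8 in anti-PD-L1. Hcar2 (r of 0.94), Clec4d (0.93) and Fpr2 (0.93) were most like Acod1 over the sums, of which Clec4d is a marker used in the neutrophil gate.

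Of the tryptophan and kynurenine list (19 genes), 4 of 69 pairs were higher and 1 lower for 2DG over control, 5 of 68 and 2 for 2FF, and 8 of 70 and 1 for anti-PD-L1. None of 67 and none of 65 were higher, and 0 and 1 lower, when 2DG or 2FF was added to anti-PD-L1. The lower counts are near the shares of all genes. Kynu, which cleaves kynurenine and its hydroxylated form, was the second gene most like Kmo (r of 0.88), between Slc30a4 (0.90) and H2-Oa (0.87), and was at 217 to 272 CPM in cDC2, 403 to 483 in pDC and 195 to 259 in mature dendritic cells. Wars, the tryptophanyl-tRNA synthetase, was 8.24 CPM in control neutrophils and 28.7 in 2FF. Tiparp, a target of the aryl hydrocarbon receptor that kynurenines activate, was 1988 CPM in control neutrophils, 782 in 2DG and 785 in anti-PD-L1. Slc7a5, a carrier of large neutral amino acids, was 45.5 CPM in Spp1/Gpnmb macrophages of the anti-PD-L1 library and 17.6 in combined 2FF. Afmid, the kynurenine formamidase, was 5.34 CPM in control and 14.8 in anti-PD-L1 in the same class, a log2 ratio of 0.94 that is within 2-fold on the scale with 5 CPM added.

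The pattern of Arg2 over the 69 sums was most like those of Id1 and Hcar2 (r of 0.94 each) and Gadd45a (0.94), that of Nos2 like those of 4930430E12Rik (0.90), Bnip3 (0.90) and 4930459C07Rik (0.90), and that of Il4i1 like those of Slc44a5 (0.90), Tmod2 (0.88) and Tox3 (0.86). For Ido1 the highest r was 0.59, with Ddr2, followed by Crip2 (0.55) and Pgm5 (0.54). The sums share libraries and cell classes, and 10182 genes were compared.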

How the data were processed

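Single-cell RNA-seq libraries of 6 groups, 1 mouse each, were analysed. The deposited files hold raw UMI counts per gene and cell, made by the authors with Cell Ranger on mm10; per the file headers the version was 7.0.0, while the submitters' processing notes name 3.1.0. No normalization had been applied. Cells with under 250 genes or over 5% mitochondrial UMIs were left out here.

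Each cell took the class whose marker list had the highest mean level (log of counts scaled to 10000 UMIs, capped at the 90th percentile of cells with a UMI), among lists with at least 3 markers detected. The enzymes were not used as markers. The scoring was settled after marker results had been seen, and the enzymes and all lists were chosen with earlier results of these data known. Cells gated as, for example, neutrophils are called so by markers alone; the study's own annotation was not used. Doublets were kept in the main values and possible ones left out in an alternative.

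UMIs were summed per class and library and given as CPM with exact Poisson 95% intervals; shares of cells have exact Clopper-Pearson intervals. PCR and capture bias are not covered. Libraries were compared by log2 ratios of CPM + 5, a scale that understates the change of low genes, over pairs with at least 50 UMIs in both libraries together and 30 cells in each; "past 2-fold" is a threshold of size, not a test. Shares at 1000 UMIs are the expected shares after thinning each cell, with shallower cells left out. Named beside the 7 enzymes are, for each enzyme, the 3 genes with the most similar pattern over sums of at least 30 cells. For each list they are the genes of the 3 largest ratios over the 5 comparisons in each macrophage class and in neutrophils. A gene can hold more than 1 of these ratios. A gene that this rule names in the list of regulators is not reported here. Python 3.11.15, numpy 2.4.6, scipy 1.17.1 and pandas 2.3.3 were used, and the ratios were tested on simulated data. The simulated counts had set fold changes and counting error only, with no spread between cells, mice or libraries. They check the calculation and not the differences between groups.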

Additional observations from a re-analysis of the deposited data

Results flagged for a closer look

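Adding 2DG or 2FF went in opposite directions past 2-fold without and with anti-PD-L1 in 4 pairs of gene and class. How many pairs of all genes did so was not counted. The 4 are therefore listed as single values and not as a trait of these enzymes. Each side is 1 library against 1, and the difference was not tested. Arg1 in neutrophils had a log2 ratio of -2.35 for 2DG over control and 1.08 for combined 2DG over anti-PD-L1, where 1 cell held 103 of the 120 UMIs of the combination. With a stricter gate the first was -0.23, so the directions were no longer opposite past 2-fold. Acod1 in Spp1/Gpnmb macrophages had -1.12 and 1.07 for the same contrasts, on 681 to 10551 UMIs per library. In mature dendritic cells, 2FF over control gave -2.29 for Arg1 and -1.96 for Acod1, and combined 2FF over anti-PD-L1 gave 1.66 and 2.48. There 1 cell held 131 of 164 Arg1 UMIs and 1 held 45 of 52 Acod1 UMIs of the library of combined 2FF, and with a stricter gate the 1.66 became 0.33. Arg1 in the same cells also differed between the inhibitors on top of anti-PD-L1, at -2.05 for 2DG and 1.66 for 2FF. The shared base was 66.6 CPM, below the level in T cells of the anti-PD-L1 library, and combined 2DG was 12.3 CPM from 7 UMIs. With the level in T cells subtracted, -2.05 became 0 and 1.66 became 4.49. The value for 2DG is therefore not told apart from background. Other low values of mature dendritic cells in these contrasts were also under the T cell level, which over all libraries was 92.5 CPM for Arg1 and 28.4 for Acod1. Arg1 was 21.2 CPM in 2FF, and Acod1 was 13.6 CPM in 2FF and 8.42 in anti-PD-L1. Those levels are not told apart from background either. Acod1 in control mature dendritic cells was 67.3 CPM, near the level in T cells of that library, the highest among the libraries. Both sides of the -1.96 are therefore not told apart from background, and it is not read as a fall. Outside the myeloid classes, Ido1 reached 13.1 CPM in the 45 cells with epithelial markers, from 19 UMIs, of which 14 came from 11 cells of the library of combined 2FF and 11 from 1 cell.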

How the results depend on the processing

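The counts of pairs past 2-fold stayed within 1.5 times under most of 13 alternatives, of which merging both macrophage classes was added after the data were seen. The count for combined 2DG over anti-PD-L1 was 14 of 50 pairs with a minimum of 20 UMIs and 17 of 61 with none. It was 5 of 27 under a stricter gate, which kept 14716 of 33153 myeloid cells. With cells thinned to 1000 UMIs, which left 20 to 22 pairs with enough UMIs, the counts were 9 for 2DG, 5 for 2FF, 4 for combined 2DG and 2 for combined 2FF. Subtracting the level in T cells gave 12 for combined 2FF. Leaving out 2607 possible doublets turned Arg1 in neutrophils to -1.10 for combined 2DG and -0.36 for combined 2FF over anti-PD-L1; that alternative removes cells with over 3 times the median UMIs of their class or with at least 2 lymphoid or epithelial markers. The alternatives were followed for 120 named ratios, from classes chosen for each enzyme and not from all pairs. Of these 120 ratios 35 were past 2-fold, 32 of these kept their sign in every alternative that gave a value and 18 stayed past 2-fold, among them Arg1 in classical monocytes for 2DG and anti-PD-L1 over control and Kmo in classical monocytes for all 3 comparisons with control. Other ratios past 2-fold, such as Arg1, Arg2, Nos2 and Acod1 in cDC2 for 2DG over control, are not covered. For 2DG over control the split was 3 higher and 10 lower of 39 pairs with the level in T cells subtracted. With possible doublets left out it was 2 and 9 of 36. Under the stricter gate the split for 2DG over control was 6 higher and 6 lower of 27 pairs (against 2 and 14 of 39). It was 9 and 4 of 26 for 2FF (against 4 and 5 of 41) and 7 and 6 of 29 for anti-PD-L1 (against 3 and 6 of 39). The mostly lower direction of 2DG and anti-PD-L1 was thus not seen among the pairs left by that gate, while 2FF had no such direction in the main values. Lost pairs and changed values both enter these counts, and the share of all genes under these alternatives was not counted. Arg1 in neutrophils for 2DG became -0.23, and Arg2 in Spp1/Gpnmb macrophages became -0.76, -0.70 and -0.08. No paired analysis was possible because each group has 1 library. The number of mice, 1 per group, limits every comparison.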
